A study of Mus musculus with 2 samples.

Results

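The genes described here encode amino acid transporters, the membrane carriers that bring amino acids into the cell, exchange them across the plasma membrane or move them out of lysosomes. They were read on 2 arrays of cultured mouse CD8+ T cells, 1 for cells grown with bezafibrate and 1 for the control. The rule for members uses gene names and no signal, although the families were picked for description with earlier results of these data known. It took every probe set with exactly 1 gene symbol that belongs to the solute carrier families Slc1a, Slc6a, Slc7a, Slc36a, Slc38a or Slc43a, or that is Slc3a1 or Slc3a2. That gave 68 probe sets of 64 genes, of 23521 probe sets and 22180 genes with a value and 1 symbol. The name covers more than the function. Of the 64 genes, 61 encode carriers and 3 do not (Slc7a6os, Slc36a1os and Slc6a19os, named for lying opposite a carrier gene). A further 5 carry other substrates, namely Slc6a2, Slc6a3 and Slc6a4 (monoamine transmitters), Slc6a8 (creatine) and Slc43a3 (purine nucleobases). Slc6a9, the glycine carrier GlyT1, shared its probe set with Ccdc24 and was not a member.

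Naive CD8+ T cells had been activated with beads bearing antibodies against CD3 and CD28, together with recombinant human IL-2 at 100 U/mL. In the bezafibrate group the fibrate drug bezafibrate, an agonist of the PPAR nuclear receptors dissolved in dimethyl sulfoxide (DMSO), was present at 30 µM for the whole culture. The control group received DMSO. Both were expanded to day 13, and the labels give no strain, sex or age of the mice and name 1 array per group. There was therefore no replicate error for any value, no p-value is given, and each difference compares 2 arrays rather than 2 conditions.

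Activated T cells take up amino acids at a high rate, because they must build protein and nucleotides for division. LAT1, encoded by Slc7a5, pairs with the CD98 heavy chain, encoded by Slc3a2, to import leucine and other large neutral amino acids in exchange for glutamine. ASCT2 (Slc1a5) and the sodium-coupled carriers SNAT1 and SNAT2 (Slc38a1 and Slc38a2) take up glutamine and other small neutral amino acids. Leucine and arginine, some of it released from lysosomes, act on the growth kinase complex mTORC1, and the transcription factors MYC and ATF4 are known to induce many of these carriers.

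RefSeq start-site windows of mouse assembly GRCm38.p6, from 250 bases before the start to 50 after it, are shown for 3 carriers. Slc38a2 and Slc38a7 had the highest and the lowest ratio among the carriers above background, as described below, and Slc36a1 encodes a lysosomal carrier, like Slc38a7. Capitals mark matches, on either strand, to CACGTG (the E-box read by MYC and by the lysosomal regulator TFEB) or to TGACNNNGC (the core of the antioxidant element read by NRF2). The windows are chr15:96699679-96699978 on the minus strand for Slc38a2, chr8:95853442-95853741 on the minus strand for Slc38a7 and chr11:55204090-55204389 on the plus strand for Slc36a1.
Slc38a2: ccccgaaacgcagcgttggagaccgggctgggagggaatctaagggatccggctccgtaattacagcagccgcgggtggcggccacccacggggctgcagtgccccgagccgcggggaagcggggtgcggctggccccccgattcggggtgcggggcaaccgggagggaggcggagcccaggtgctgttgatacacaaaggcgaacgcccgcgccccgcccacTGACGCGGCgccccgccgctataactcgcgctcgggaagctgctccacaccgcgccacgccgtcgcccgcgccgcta
Slc38a7: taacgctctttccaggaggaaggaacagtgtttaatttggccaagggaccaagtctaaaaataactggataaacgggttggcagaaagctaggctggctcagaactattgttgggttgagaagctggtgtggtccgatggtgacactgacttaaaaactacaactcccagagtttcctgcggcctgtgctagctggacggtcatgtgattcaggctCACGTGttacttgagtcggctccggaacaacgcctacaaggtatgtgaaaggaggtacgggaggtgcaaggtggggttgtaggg
Slc36a1: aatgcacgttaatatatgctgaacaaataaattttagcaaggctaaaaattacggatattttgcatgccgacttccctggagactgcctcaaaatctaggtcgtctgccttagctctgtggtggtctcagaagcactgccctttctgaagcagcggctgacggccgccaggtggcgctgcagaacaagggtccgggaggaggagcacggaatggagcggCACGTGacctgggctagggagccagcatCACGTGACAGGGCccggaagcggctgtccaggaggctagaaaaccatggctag

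The Slc38a7 window held 1 E-box, whose first base lay at position -34 from the start site. The Slc36a1 window held 2, at -31 and -3, and the second shared its last 2 letters with an antioxidant core match at 2. Positions count the first transcribed base as 1, with no 0. The Slc38a2 window held only an antioxidant core match, at -27. The window of Slc38a9, which also encodes a lysosomal carrier and is not shown, held neither an E-box nor an antioxidant core. Of the 24 genes of the set that read above background on both arrays, 17 had a window. Slc7a5, Slc1a5, Slc38a1, Slc36a2, Slc6a6, Slc6a8 and Slc43a3 had none and were not searched. An E-box was found in 4 of the 17 with a window (Slc1a6, Slc1a7, Slc36a1 and Slc38a7), beside 7.15% of all 32851 windows and 8.09% of genes. Over all members with a window, whether above background or not, it was found in 9 of 47. The antioxidant core was found in 4 of 17 (Slc36a1, Slc38a2, Slc7a1 and Slc7a6) and in 9 of the 47, beside 12.39% of windows and 13.99% of genes. The ATF4 response element TGATGNAAT was found in 0 of 17 and in 1 of the 47 (Slc6a21), beside 0.96% of windows and 1.08% of genes. A match is a string of letters and does not show that a factor binds there, and its absence says only that these letters are not in the window.

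Background was read from 1105 genes of olfactory receptors (Olfr), which serve smell. Their 95th percentile was a log2 signal of 4.74 on the bezafibrate array and 4.72 on the control array, and their 99th percentile was 5.71 and 5.62. A gene is called above background where both arrays exceed the 95th percentile, which by construction 1 in 20 Olfr genes also do on each array. Of the 64 genes, 24 (37.5%) were above background on both arrays, beside 50.7% of all genes, and 26 (40.6%) were so on at least 1 array, beside 54.6%. Above the 99th percentile were 18 (28.1%), beside 36.7% of all genes. Signals of different probe sets are not on a common scale, so levels are given per gene and not ranked between genes.

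**Figure D1:**
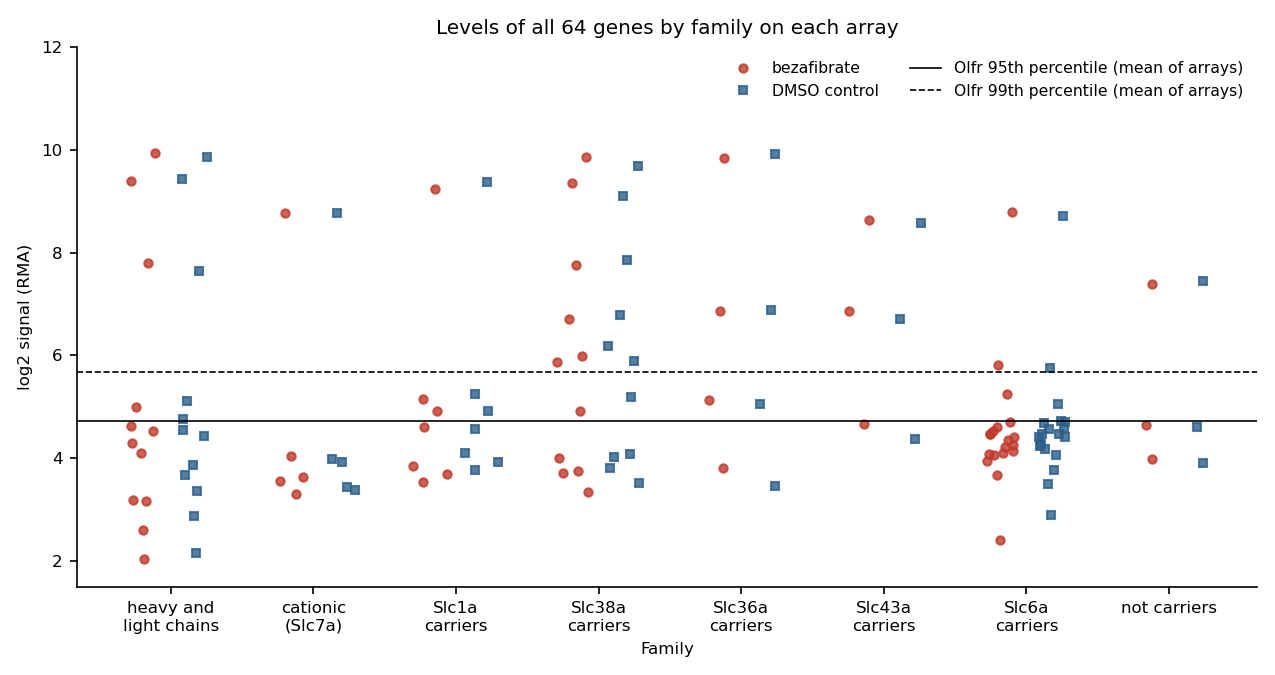
Log2 RMA signal (y axis) of each of the 64 genes by family (x axis), with circles for the bezafibrate array and squares for the DMSO control array; the solid and dashed lines are the 95th and 99th percentiles of Olfr genes, averaged over the arrays. Most Slc6a genes lie at or under the solid line on both arrays, whereas 7 of the 11 Slc38a genes lie above it.

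Among the genes above background, differences between the arrays were small. The log2 ratio, bezafibrate minus control, ran from -0.32 (Slc38a7) to 0.25 (Slc38a2), with 12 genes higher, 11 lower and 1 exactly equal. The median was 0.00. All genes above background had a median of 0.00 too, with 48.4% higher and 49.3% lower, and 95% of them lay between -0.39 and 0.40. No member lay outside that range (0 of 24). At least 1.5-fold higher were 0 of the 26 members above the limit on at least 1 array, beside 0.693% of all such genes, and at least 1.5-fold lower were also 0 of 26, beside 0.578%. At 1.3-fold the counts were also 0 higher and 0 lower, beside 3.46% and 3.89%, and at 2-fold 0 and 0, beside 0.0908% and 0%. With background shares this small, the counts of 0 are not a result about the carriers. At a lower limit of 1.1-fold, chosen after the values were seen, 5 of 26 were higher (24.4% of all such genes) and 3 of 26 lower (26.7%). Of the 24 genes above background, 17 (70.8%) differed less than 1.1-fold, beside 51.3% of all genes above background. Fewer cells of a type and less RNA per cell cannot be told apart in such bulk samples.

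The carriers' median absolute log2 ratio was 0.08, beside 0.13 for all genes above background. In 3 classes of mean log2 level (under 6, 6 to 8, and 8 and over) it was 0.09, 0.09 and 0.08 for 8, 7 and 9 members, beside 0.13, 0.14 and 0.12 for all genes of the class. The set was thus less spread than all genes in each class, as a description of these arrays and with no test. Olfr genes, which carry mostly background, had a median absolute ratio of 0.21.

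**Figure D2:**
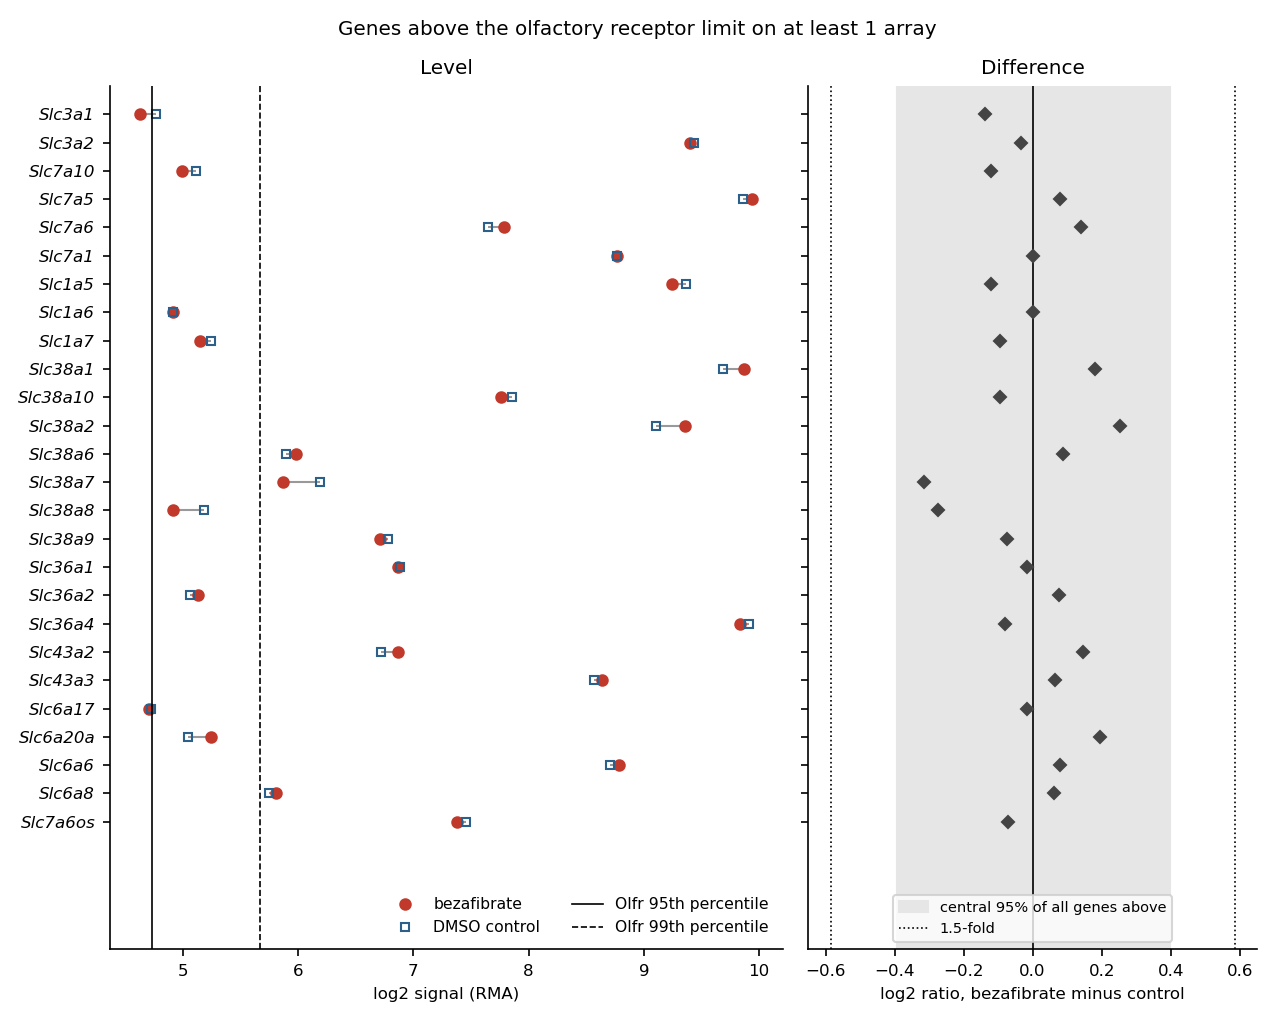
Left, log2 RMA signal on the bezafibrate array (filled circles) and the DMSO control array (open squares) of the 26 genes above the Olfr limit on at least 1 array, with lines at the 95th and 99th percentiles of Olfr genes averaged over the arrays; right, the log2 ratio of each, with the central 95% of all genes above background shaded and dotted lines at 1.5-fold. Every ratio lies inside the shaded range, with Slc38a2 farthest to the right and Slc38a7 farthest to the left.

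Both parts of the leucine exchanger were read far above background. Slc7a5 (probe set 17513641), the LAT1 light chain, had a log2 level of 9.94 with bezafibrate and 9.86 in control, a log2 ratio of 0.08. Slc3a2 (17362453), the CD98 heavy chain with which LAT1 reaches the membrane, had 9.40 with bezafibrate and 9.44 in control, a ratio of -0.03. The partners thus differed by 1.06-fold and 1.02-fold, the sign of Slc3a2 changed under other processing (-0.04 to 0.00), and 69.1% and 86.3% of all genes above background had a ratio at least as large in size.

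Of the other light chains in the set, not all of which bind CD98, Slc7a6 was the only one above the 99th percentile of Olfr genes. Slc7a6, y+LAT2, which exchanges cationic for neutral amino acids, had 7.79 with bezafibrate and 7.65 in control (ratio 0.14). Slc7a10, the small neutral amino acid exchanger Asc-1, had 4.99 with bezafibrate and 5.11 in control, just over the limit. Slc7a11, the xCT chain that takes up cystine for glutathione, was within background on both of its probe sets. These had 2.60 and 2.56 with bezafibrate and 2.88 and 2.38 in control. Slc7a7 (y+LAT1) and Slc7a8 (LAT2) were within background, as were Slc7a9, Slc7a12, Slc7a13 and Slc7a15. Slc3a1, the heavy chain of the kidney and gut cystine exchanger, had 4.63 with bezafibrate and 4.77 in control and so crossed the limit on the control array only.

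Among the cationic carriers 1 of 5 was above background. Slc7a1, CAT1, the arginine and lysine carrier of most cells, had 8.77 on the bezafibrate array and 8.76 on the control array, a ratio of 0.00 that ran from -0.10 to 0.00 under other processing. Slc7a2 (CAT2), Slc7a3 (CAT3), Slc7a4 and Slc7a14 were within background on both, with levels between 3.31 and 4.04 with bezafibrate and between 3.38 and 3.98 in control.

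In the Slc1a family, 3 of 7 genes were above background and 1 was far above it. Slc1a5, ASCT2, was read by a pair of probe sets that differed in sign. Probe set 17474143 had 9.24 with bezafibrate and 9.36 in control (ratio -0.12), and 17486956 had 6.43 with bezafibrate and 6.41 in control (ratio 0.02). The direction of Slc1a5 is therefore not settled by these arrays. Its relative Slc1a4, ASCT1, which carries alanine, serine and cysteine, lay just under the limit with 4.61 with bezafibrate and 4.58 in control. The glutamate carriers, known for clearing the transmitter in the nervous system, were within background for Slc1a1, Slc1a2 and Slc1a3. Slc1a6 had 4.91 on both arrays, with exactly equal deposited values, and Slc1a7 had 5.15 with bezafibrate and 5.24 in control. Both lay between the 95th and 99th percentiles of Olfr genes.

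The sodium-coupled neutral amino acid carriers of the Slc38a family held the highest and the lowest ratio among the 24 genes above background. Slc38a2 (17320928), SNAT2, whose expression is known to respond to amino acid shortage and cell shrinkage, had 9.36 with bezafibrate and 9.10 in control, 1.19-fold higher (ratio 0.25). Slc38a1 (17320907), SNAT1, had 9.87 with bezafibrate and 9.69 in control, 1.13-fold higher (0.18). SNAT1 and SNAT2 thus both read higher with bezafibrate, unlike the brighter probe set of the glutamine carrier ASCT2 (Slc1a5), and 19.8% and 35.5% of all genes above background had a ratio at least as large in size. Slc38a4, SNAT4, which like them lies on chromosome 15, was within background with 3.33 with bezafibrate and 3.52 in control.

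Slc38a7 (17512088), SNAT7, a lysosomal exporter of glutamine and asparagine characterised in human cells, had 5.87 with bezafibrate and 6.19 in control, 1.24-fold lower (ratio -0.32). As large a ratio in size was seen in 11.2% of all genes above background. Slc38a9, the lysosomal carrier through which arginine is sensed by mTORC1, had 6.71 with bezafibrate and 6.78 in control (ratio -0.07). Slc38a10 had 7.76 with bezafibrate and 7.85 in control on its brighter probe set (ratio -0.09), and the other had a ratio of -0.15. Slc38a6 had 5.98 with bezafibrate and 5.89 in control (0.09, and 0.00 with the level and gene length trend subtracted). Slc38a8 had 4.91 with bezafibrate and 5.19 in control (-0.28), close to the limit on the bezafibrate array. Slc38a3 and Slc38a5, the SNAT3 and SNAT5 carriers that can also release glutamine, and Slc38a11 were within background.

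**Figure D3:**
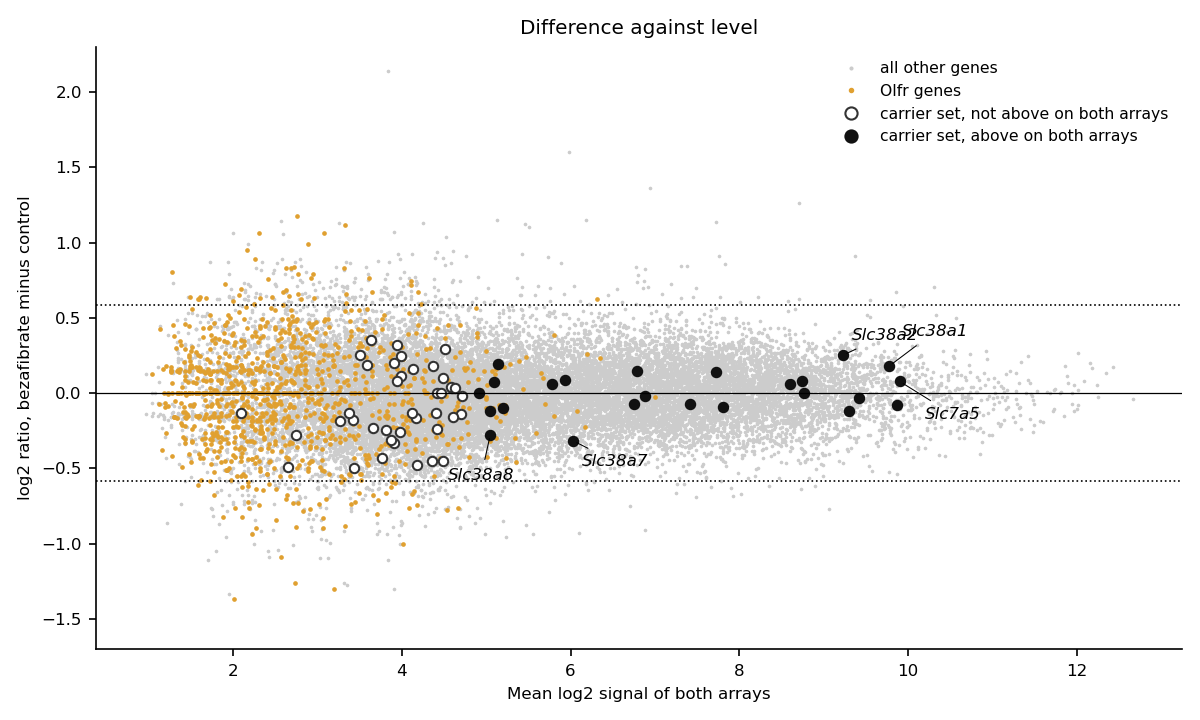
Log2 ratio, bezafibrate minus control (y axis), against the mean log2 RMA signal of both arrays (x axis) for all genes, with Olfr genes in orange and the 64 genes of the carrier set as circles, filled where both arrays were above the Olfr limit; dotted lines mark 1.5-fold. Open circles at low signal reach -0.49 and 0.35, among Olfr genes of like spread, and filled circles stay between -0.32 and 0.25.

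Of the proton-coupled carriers of the Slc36a family, 3 of 4 were above background. Slc36a1, PAT1, which moves small neutral amino acids out of lysosomes, had 6.87 with bezafibrate and 6.89 in control (ratio -0.02). Slc36a4, PAT4, whose human protein is a high-affinity carrier of proline and tryptophan, was read by a pair of probe sets with opposite signs. Probe set 17514867 had 9.84 with bezafibrate and 9.91 in control (-0.08), and 17514853 had 5.81 with bezafibrate and 5.65 in control (0.16). Slc36a2, PAT2, had 5.14 with bezafibrate and 5.06 in control, and Slc36a3 was within background.

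Of the Slc43a family, the uniporter LAT4 (Slc43a2), which lets branched-chain amino acids and phenylalanine pass without exchange, had 6.86 with bezafibrate and 6.72 in control (ratio 0.15). Slc43a3, a carrier of purine nucleobases, had 8.64 with bezafibrate and 8.57 in control (0.06). LAT3 (Slc43a1) lay under the limit on both arrays, just under it with bezafibrate (4.66) and farther under it in control (4.37).

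The Slc6a family, best known for reuptake of transmitters in the brain, had 3 of 19 genes above background, beside 50.7% of all genes. Slc6a6, TauT, the taurine carrier, had 8.79 with bezafibrate and 8.71 in control (ratio 0.08, and -0.03 with the level and gene length trend subtracted). Slc6a8, the creatine carrier, had 5.81 with bezafibrate and 5.75 in control (0.06), and Slc6a20a, a carrier of proline, had 5.24 with bezafibrate and 5.05 in control (0.20). Slc6a17 was at the limit, with 4.71 with bezafibrate and 4.73 in control. The other 15 were within background, at 2.41 to 4.60 with bezafibrate and at 2.90 to 4.71 in control. These were Slc6a2, Slc6a3 and Slc6a4 for monoamines, Slc6a5 for glycine, Slc6a7 for proline, Slc6a11, Slc6a12 and Slc6a13 for GABA or betaine, Slc6a14, Slc6a15, Slc6a18, Slc6a19 and Slc6a20b for amino acids, and the less studied Slc6a16 and Slc6a21.

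The 38 genes within background on both arrays had ratios from -0.49 to 0.35, with a median of -0.13. Olfr genes had a median ratio of 0.00, and 95% of them lay between -0.73 and 0.65. Values within background have no order, and no fold is given for a single gene there. Of the 3 genes that encode no carrier, Slc7a6os had 7.38 with bezafibrate and 7.45 in control (ratio -0.07), and the others were within background.

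Genes that act with the carriers were described by lists, beside the 48.4% higher and 49.3% lower among all genes above background. Of 25 measured genes of amino acid sensing by mTORC1, all above background, 10 read higher and 15 read lower, and the median log2 ratio was -0.04. Lowest were Castor2 (a relative of the arginine sensor gene Castor1) at -0.40, Tsc1 (an mTORC1 inhibitor) at -0.32 and Lamtor4 (a lysosomal anchor of the pathway) at -0.31. Highest were Mtor, the kinase itself, at 0.22, Sesn3 at 0.22 and Fnip1 at 0.18. Of 13 amino acid and peptide carriers of other families above background, 6 were higher and 7 lower (median -0.02), with Tmem104 at -0.35, the aromatic amino acid carrier Slc16a10 at -0.25 and the mitochondrial aspartate-glutamate carrier Slc25a13 at 0.19.

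Of the 18 genes of the ATF4 and amino acid response above background, 7 were higher and 11 lower, with a median of -0.08. Atf4 had 8.58 with bezafibrate and 8.66 in control. Asns, asparagine synthetase, had 6.65 with bezafibrate and 6.53 in control, and Ddit3, the stress factor CHOP, had 6.15 with bezafibrate and 6.28 in control. Eif4ebp1, a translation repressor, was lowest at -0.34 and Eif2ak4, the GCN2 kinase that senses uncharged tRNA, highest at 0.26. Of 12 enzymes that use amino acids, 7 were higher and 5 lower (median 0.06), among them Got1 at -0.25, the polyamine enzyme Odc1 at -0.25 and the branched-chain transaminase Bcat1 at 0.24. Of 11 regulators of the carriers, 7 were higher and 4 lower (median 0.02). The lists overlap: Atf4 is also in the ATF4 list, and Sesn2 is also in the ATF4 and mTORC1 lists. Myc had 9.12 with bezafibrate and 9.26 in control (-0.14). The kinase Sgk1 had 6.13 with bezafibrate and 5.75 in control (0.37), and the ubiquitin ligase Nedd4 had 9.82 with bezafibrate and 9.58 in control (0.24).

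**Figure D4:**
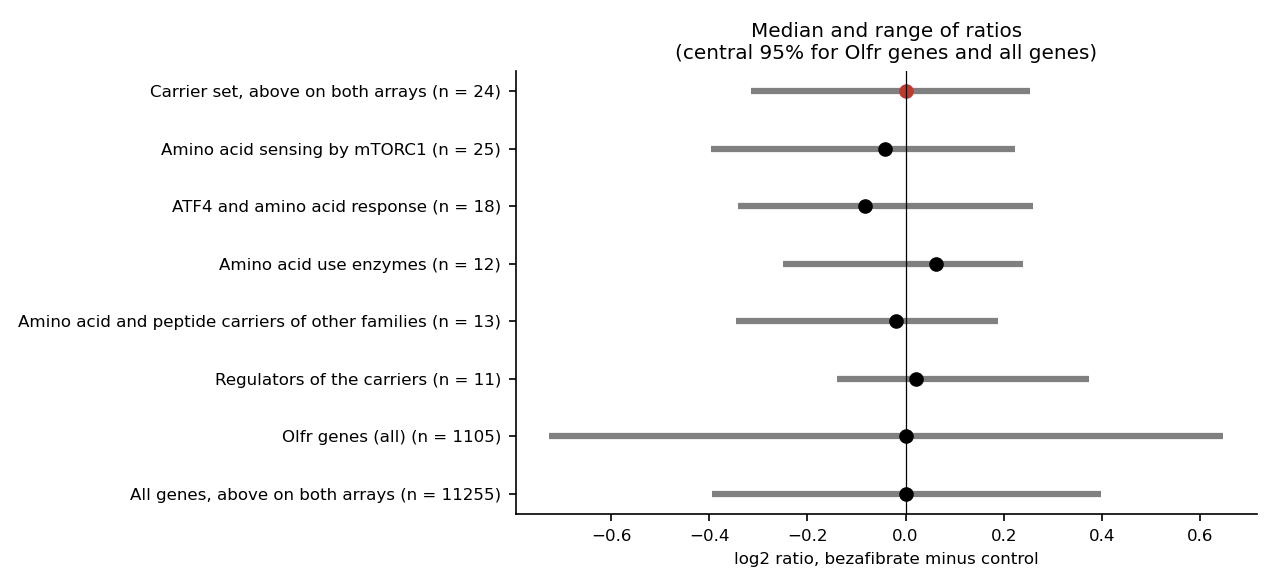
Median log2 ratio, bezafibrate minus control (points, x axis), of the carrier set and 5 comparison lists above background, with lines over their whole range, and of all 1105 Olfr genes and all 11255 genes above background, with lines over the central 95%. The medians lie between -0.08 and 0.06, and the range of each list crosses 0. Some genes are in several lists.

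The labelled cell type was checked by its markers. The 6 measured T cell genes (Cd3d, Cd3e, Cd3g, Cd8a, Cd8b1 and Cd2) were all above background, at 8.56 to 11.05 with bezafibrate and 8.70 to 11.10 in control, and all were lower with bezafibrate, with a median ratio of -0.16. Some markers of other cells were above background too. Of 5 B cell genes these were Ighm (8.72 with bezafibrate and 9.05 in control) and Cd79b (4.85 with bezafibrate and 5.41 in control). Their log2 ratios were -0.33 and -0.55. Of 5 dendritic cell genes it was Cd209a (-0.45), and of 6 macrophage genes Csf1r (0.07) and C1qa (-0.15). Of 3 CD4 T cell genes it was Foxp3 (0.07), but 0 of 4 neutrophil and 0 of 2 NK cell genes were above background. Cd4, Cd79a, Ms4a1, Itgax and Adgre1 were within background. The part of other cells in the carriers' values was not tested.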

How the data were processed

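Total RNA of 2 cultures, 100 ng each, was amplified with a whole-transcript kit and read on Affymetrix arrays, per the labels' protocols. The submitters' processing notes name RMA and Affymetrix Expression Console as the tools that made the deposited table, which holds 1 log2 signal per probe set and array. Versions and genome build were not given in the sources used here. This normalization equalises the arrays, so a shift shared by most genes is removed, and it shrinks differences at low signal. The log2 scale was inferred from the range of the values, with column medians of 4.55 for bezafibrate and 4.58 for control.

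Of 41801 probe sets, 8008 were blank, 23521 named 1 gene in the platform annotation, 1814 several and 8458 none. Each gene was represented by its probe set with the highest mean. Log2 ratios are bezafibrate minus control. With 1 array per group no difference was tested, and the number of arrays limits the precision. The background limit and the 1.5-fold rule for higher genes were run on simulated data. Calls of lower genes were not simulated. Genes above background on at least 1 array are named with their levels and the others without a fold, and of each comparison list some of the highest and lowest ratios are given, with fixed genes such as Myc and Atf4. The families to describe and the lists were chosen with earlier results of these data known, although the rule for members uses only gene names. Other limits, probe set rules, fold limits and normalizations were tried as alternatives. The level and length trend was the median of genes in 10 by 10 classes, for the 22136 genes with a RefSeq length. Proteins were not used here. Calculations used Python 3.11.15, numpy 2.4.6, pandas 2.3.3 and statsmodels 0.14.6, and plots matplotlib 3.10.9.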

Additional observations from a re-analysis of the deposited data

How the results depend on the processing

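The count of 24 genes above background was within 1.5 times of itself under every alternative but the 90th percentile of Olfr genes, which gave 38. It was 18 at the 99th percentile, which dropped Slc1a6, Slc1a7, Slc36a2, Slc38a8, Slc6a20a and Slc7a10. The counts of genes at least 1.5-fold higher and lower stayed at 0 under the other limits, probe set rules and normalizations run. At 1.3-fold and 2-fold they were 0 too, and at 1.1-fold, chosen after seeing the data, they were 5 and 3. The deposited ratios of all 64 genes ran from -0.49 to 0.35, short of the log2 ratio of 0.585 that 1.5-fold needs. Another background limit or the 2-fold limit therefore could give only 0. Of 24 genes above background, 18 kept their direction under 6 changes of normalization or probe set and 5 did not, and Slc1a6, equal on both arrays as deposited, ran from 0.00 to 0.04. Those 5 were Slc1a5 (-0.13 to 0.02), Slc36a4 (-0.11 to 0.04), Slc3a2 (-0.04 to 0.00), Slc6a6 (-0.03 to 0.08) and Slc7a1 (-0.10 to 0.00). Slc38a6 counts among the 18, although its ratio fell from 0.09 to 0.00 with the level and gene length trend subtracted. Among the 24 genes, the changes of probe set could alter only Slc1a5, Slc36a4 and Slc38a10, which have 2 probe sets each. For the other genes these changes returned the deposited ratio, so only the changes of normalization bore on their direction. The ratio of Slc38a2 ran from 0.25 to 0.34, that of Slc38a1 from 0.08 to 0.20 and that of Slc38a7 from -0.33 to -0.31. No paired analysis was possible because each group has 1 array, and for the same reason no array could be left out. Signal over background limits the genes between the 95th and 99th percentiles of Olfr genes, and small ratios have no replicate error to be set against.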
